A study of Mus musculus with 2 samples.

Results

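The genes described are Saa1, Saa2, Saa3, Lcn2, Ltf, C3, Hp, Pigr and Cfb, 9 genes of the acute-phase response and of defence at mucosal surfaces. They were picked by name from the log2 ratios of these same arrays, so their values are a description and no test is given for them. All 9 were among the 27827 gene names on the array, through 12 probes, and all 9 had at least 1 probe bright enough to be among the 15131 genes tested. A gene is read from its brightest probe unless the probe is named.

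Prostaspheres are spheres grown from single prostate epithelial cells in Matrigel. RNA of 4 cultures was hybridized to 2 two-color Agilent arrays on 1 slide. On the genotype array, wild-type C57/Bl6J cells treated with tamoxifen (TAM) were labeled with Cy5 and ER-Sox9flox/flox cells treated with TAM with Cy3. On the treatment array, ER-Sox9flox/flox cells treated with vehicle were labeled with Cy5 and a separate RNA of ER-Sox9flox/flox cells treated with TAM with Cy3. In ER-Sox9flox/flox cells Sox9 is floxed and ERCre, a Cre recombinase not limited to the prostate, is switched on by TAM. Per the labels all cells were epithelium of the urogenital sinus (UGS) from embryos at 16 dpc on the C57/Bl6J background, kept 6 days in Matrigel with dihydrotestosterone and then 6 more days with 5 µM TAM or vehicle, whereas the methods describe the prostasphere assay for adult prostate.

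Each log2 ratio is Cy5 over Cy3, that is, Sox9-expressing over Sox9-deleted RNA, and a negative value is a lower signal with Sox9. The RNAs were assigned from titles, treatments and dyes. The genotype labels name wild type and null for the RNAs of the genotype array but null for both RNAs of the treatment array, so the vehicle-treated RNA was taken as Sox9-expressing from its title and treatment alone, and every ratio of that array rests on this. The source names call the Cy5 RNA SOX9 and the Cy3 RNA Ctrl, and if SOX9 stood there for the deletion every sign would turn. Of the 3 Sox9 probes, 2 were higher in the RNA labeled as Sox9-expressing (mean log2 ratios of 2.53 ± 0.23 and 1.22 ± 0.07, SD, n = 2 arrays), and the most distal was lower, at -1.11 ± 0.16. Krt5 and Krt14, keratins of basal epithelial cells, were also higher in the RNA labeled as Sox9-expressing. Their log2 ratios were 2.13 and 1.91 for Krt5 and 2.07 and 1.86 for Krt14. The paper reports the expression of both as Sox9-dependent, from the profiling deposited here, and states that gene expression was checked by RT-PCR. The dyes were not swapped, so dye and Sox9 cannot be told apart. Each condition was 1 RNA, apart from the Sox9-deleted cells with 2, and the arrays differ in what else they compare: mouse line on the first, exposure to TAM on the second. Of 11 epithelial markers 9 were well above background in all 4 RNAs, and Foxa1 in none.

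Acute-phase proteins are secreted in large amounts after infection or injury, mainly by the liver, but epithelia make many of them locally. Interleukin-6 acts on their genes through Stat3, and interleukin-1 through NF-kappaB and C/EBP factors. Saa1, Saa2 and Saa3 encode serum amyloid A proteins, small lipid-binding proteins. Lcn2 and Ltf bind iron, Lcn2 as bacterial siderophores and Ltf, lactoferrin, directly. Hp, haptoglobin, binds free haemoglobin. C3 and Cfb belong to complement, and Pigr carries polymeric IgA across epithelia into secretions.

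The arrays read each gene through probes of 60 bases. The probes below, from the array files, carry the results that follow. Capitals mark the longest run of letters, 8 bases, that the Saa3 probe shares with a Saa1 probe.
Saa3 probe: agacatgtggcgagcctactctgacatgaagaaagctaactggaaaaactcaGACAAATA
Saa1 brighter probe: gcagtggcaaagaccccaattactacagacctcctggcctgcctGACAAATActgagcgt
Saa1 dimmer probe: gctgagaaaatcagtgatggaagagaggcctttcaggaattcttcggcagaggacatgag
Ltf brighter probe: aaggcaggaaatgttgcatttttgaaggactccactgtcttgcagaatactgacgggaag
Ltf dimmer probe: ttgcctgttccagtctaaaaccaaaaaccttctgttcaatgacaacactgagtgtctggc
Hp probe: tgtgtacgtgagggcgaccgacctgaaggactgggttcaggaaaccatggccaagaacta
Cfb probe: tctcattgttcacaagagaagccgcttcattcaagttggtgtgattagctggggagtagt
Lcn2 probe: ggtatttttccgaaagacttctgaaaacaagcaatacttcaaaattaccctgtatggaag

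In the array annotation (mm9) the Saa3 probe lies at chr7:53968031-53968090 and the brighter Saa1 probe at chr7:53996070-53996129, both on the minus strand, with the Saa2 probe at chr7:54009535-54009594 on the plus strand. The Hp probe lies at chr8:112099172-112099231, minus strand. The dimmer Ltf probe lies at chr9:110942873-110942932, plus strand, and the brighter one spans 3051 genomic bases, so it crosses at least 1 intron. No pair of Saa probes shared a run of more than 8 bases. The probes start at different places of their transcripts, base 132 for Saa3, 346 and 249 for Saa1 and 460 for Saa2. Short shared runs between them thus do not show whether a probe also binds RNA of another Saa gene. The accession list of the Saa3 probe names a Saa1 transcript beside that of Saa3, and whether Saa1 RNA adds to the Saa3 signal was not tested.

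The 9 genes fell into 3 sets of 3 by the sign of their log2 ratios. Saa1, Saa2 and Saa3 were lower with Sox9 on both arrays, against 33.8% of all tested genes. Lcn2, C3 and Pigr were higher on both, against 33.8% of tested genes. Ltf, Hp and Cfb were lower on the genotype array and higher on the treatment array, against 18.4% of tested genes. The genes were chosen with these values known, so nothing is read from the counts. Saa3 was the only member at least 2-fold lower on both arrays (0.159% of tested genes), and 0 were at least 2-fold higher on both (0.377%).

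**Figure D1:**
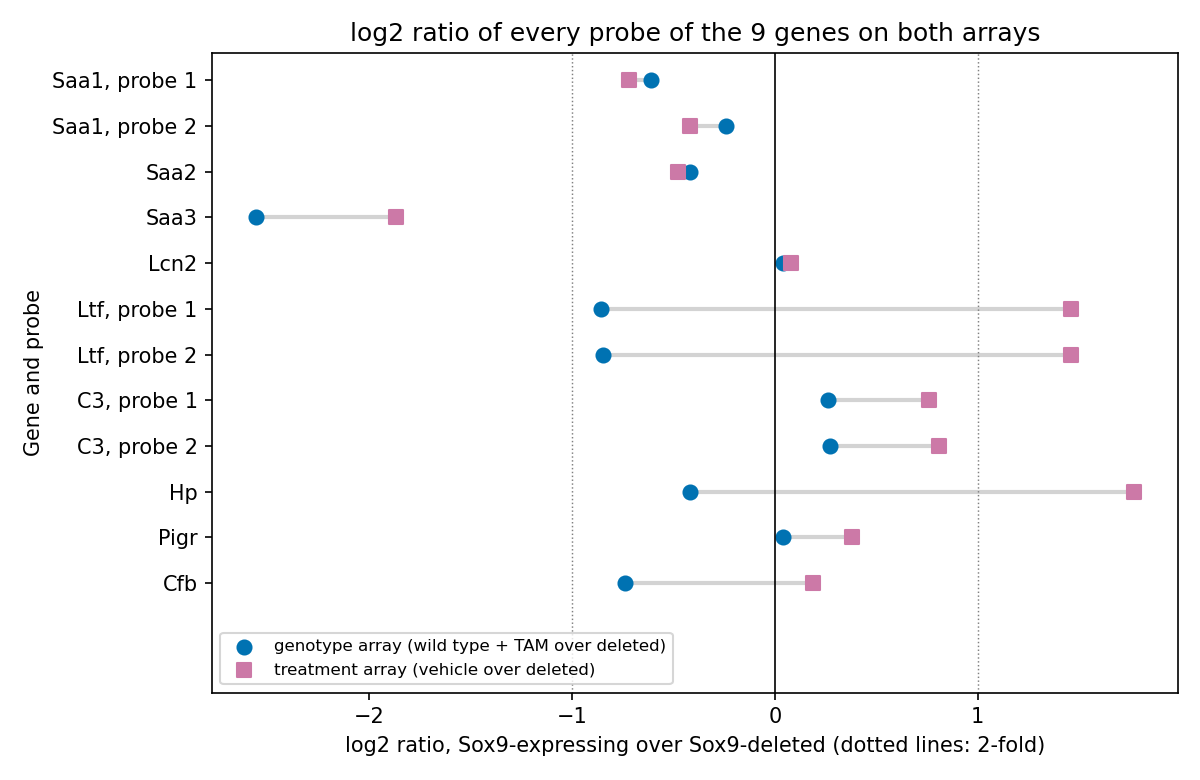
log2 ratio of Sox9-expressing over Sox9-deleted RNA (x axis) for each of the 12 probes of the 9 genes (y axis), on the genotype array (circles) and the treatment array (squares), 1 value per probe and array. The Saa3 pair lies at -2.56 and -1.87, and the Ltf and Hp pairs lie on opposite sides of 0.

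Saa3 had a brightness, in arbitrary units after normalization and including a constant of 50, of 327 in wild-type cells with TAM and 370.1 in ER-Sox9flox/flox cells with vehicle. In the Sox9-deleted RNAs it was 1924.3 on the genotype array and 1351.1 on the treatment array. Both Sox9-deleted RNAs were thus brighter than both Sox9-expressing RNAs, with no overlap. How many of all tested genes had no overlap was not counted, so here and below this only describes the values. The log2 ratios were -2.56 and -1.87, a mean of -2.21 ± 0.49 (SD, n = 2 arrays), which is 4.63-fold lower with Sox9. Of the 15131 tested genes, 3 had a lower mean log2 ratio. Saa3 is made outside the liver too, in epithelium, fat and macrophages among other sites.

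Saa1 and Saa2, the circulating forms that the liver secretes, went the same way from dim signals. Saa1 had a brightness of 160.9 in wild-type cells with TAM, 147.1 in vehicle-treated cells, and 245.9 and 242.9 in the Sox9-deleted RNAs. The groups did not overlap, and the Sox9-deleted pair lay within 0.02 of each other on the log2 scale. The mean log2 ratio was -0.67 ± 0.08 (n = 2). The dimmer Saa1 probe was not well above background in either Sox9-expressing RNA. Its log2 ratios were -0.24 and -0.42, and in their mean Saa1 was at least 1.26-fold lower with Sox9 by it. For a probe not well above background the fold is a bound on the mean over both arrays, not on each array. It uses the higher of the probe's own signal and the dimmest signal called well above background. For the probes given such a bound here the own signal was the higher, so the bound equals the measured mean ratio.

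Saa2 had a brightness of 103.8 in wild-type cells with TAM, where it was not well above background, and 89.7 in vehicle-treated cells. It was 138.9 and 125 in the Sox9-deleted RNAs, again above both Sox9-expressing RNAs. Its log2 ratios were -0.42 and -0.48, a mean of -0.45 ± 0.04 (n = 2). Only the second sets 2 signals called well above background against each other. The vehicle-treated signal of 89.7 was still no brighter than the 90.4 of Alb in that RNA, which was not called well above background. The added constant shrinks ratios of probes this dim, and with a constant of 10 they were -0.75 and -0.99 for Saa1 and -0.57 and -0.99 for Saa2. On the scanner software's processed signals, which differ in background subtraction and dye normalization as well as in having no constant, they were -1.47 and -1.27 for Saa1, and -1.64 for Saa2 on the treatment array.

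The Saa genes lie near each other on chromosome 7, and the 250 bases before their start sites are shown since the 3 genes had the same sign on both arrays. They are from RefSeq (GRCm38.p6), where 7 of the 9 genes had a window. Capitals mark matches to TTNNGCAA, a C/EBP motif, and to 2 forms of an NF-kappaB motif, GGNNNTTCC and a looser one of GGG, any 5 letters and CC, on either strand.
Saa3, chr7:46715677-46715926, minus strand: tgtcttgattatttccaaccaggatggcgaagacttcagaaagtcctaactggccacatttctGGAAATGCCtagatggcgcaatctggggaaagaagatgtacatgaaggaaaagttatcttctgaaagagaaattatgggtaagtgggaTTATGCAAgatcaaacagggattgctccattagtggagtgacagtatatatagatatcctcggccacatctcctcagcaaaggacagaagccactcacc
Saa1, chr7:46742981-46743230, minus strand: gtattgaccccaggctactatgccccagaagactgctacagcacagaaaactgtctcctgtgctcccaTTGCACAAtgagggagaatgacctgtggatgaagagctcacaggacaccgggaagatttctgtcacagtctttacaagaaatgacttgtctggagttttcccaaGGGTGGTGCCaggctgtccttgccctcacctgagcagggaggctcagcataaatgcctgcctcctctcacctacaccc
Saa2, chr7:46751583-46751832, plus strand: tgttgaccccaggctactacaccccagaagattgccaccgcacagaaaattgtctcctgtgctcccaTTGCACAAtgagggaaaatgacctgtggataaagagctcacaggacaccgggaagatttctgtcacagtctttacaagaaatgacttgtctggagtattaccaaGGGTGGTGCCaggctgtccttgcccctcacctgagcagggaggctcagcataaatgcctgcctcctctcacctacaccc

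In these windows, taken with the 50 bases after the start, Saa1 and Saa2 had 287 of 299 aligned bases in common (96.0%), and Saa1 and Saa3 had 141 of 288 (49.0%). The C/EBP letters were found in 6 of the 7 members' windows, all but Pigr, and in 10.8% of 32851 promoter windows of the same length. In Saa3 the match began 99 bases before the start site and in Saa1 182 bases. GGNNNTTCC was found in 1 of 7, Saa3, and in 18.5% of all windows, whereas the looser form was found in the other 6 and in 50.8% of all windows, so this count turned on the letters chosen, and no match of one form overlapped the other in these genes. The STAT letters TTCNNNGAA and the Sox letters AACAAT and ACAAAG were found in 1 of 7 each, Pigr, against 8.3% and 27.0% of all windows. A match of letters is not a bound site.

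**Figure D2:**
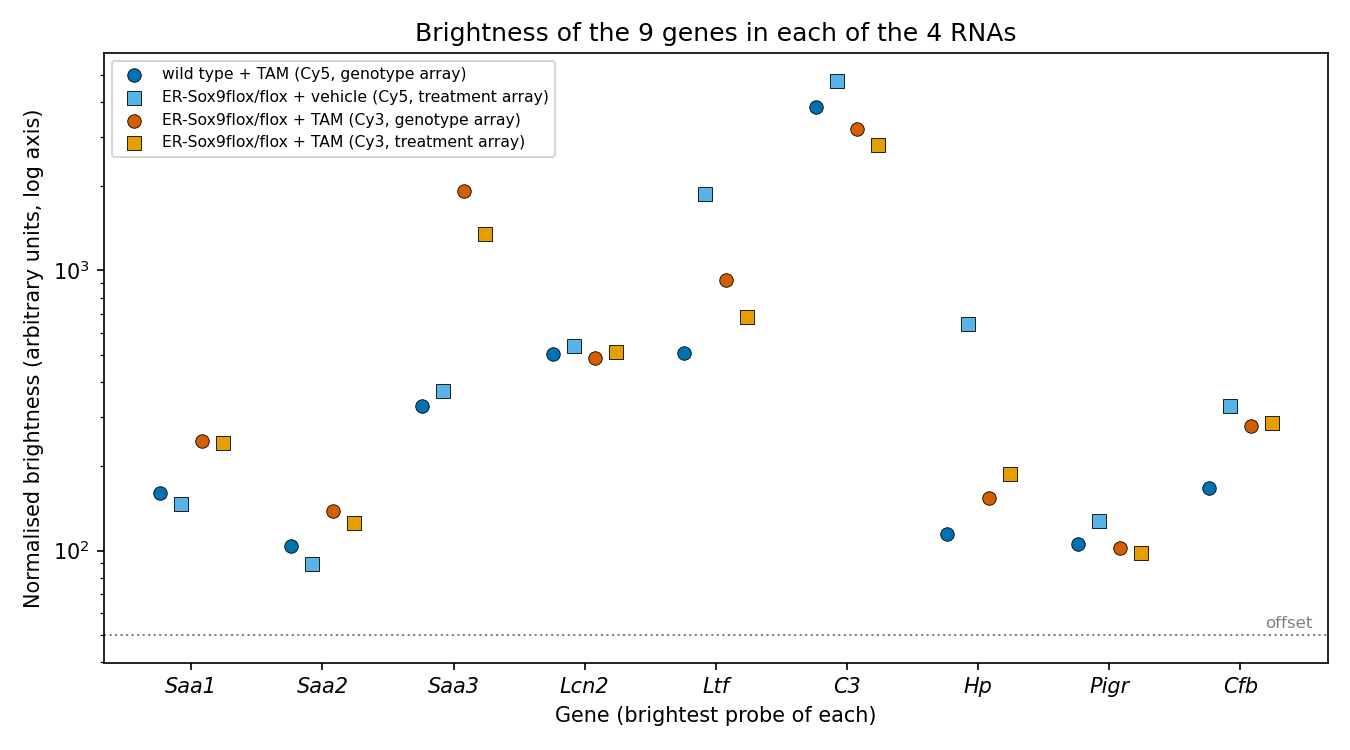
Normalized brightness (y axis, log scale, constant of 50 included) of the brightest probe of each of the 9 genes (x axis) in the 4 RNAs, 1 point per RNA. Saa1, Saa2 and Saa3 are brightest in the 2 Sox9-deleted RNAs, and the other 6 genes are brightest in vehicle-treated ER-Sox9flox/flox cells.

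Lcn2, which is often measured beside Saa3 as a target of the same signals in epithelia, had similar signals in all 4 RNAs. Its brightness was 501.4 in wild-type cells with TAM, 538.6 in vehicle-treated cells, and 487.2 and 510.4 in Sox9-deleted cells. The groups overlapped. The log2 ratios were 0.04 and 0.08, a mean of 0.06 ± 0.03 (n = 2), and 62.4% of tested genes had a lower mean. Its receptor gene Slc22a17 had log2 ratios of -0.05 and 0.13.

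Ltf had a brightness of 508.4 in wild-type cells with TAM and 1879.6 in vehicle-treated cells, and of 920.8 and 683.5 in the Sox9-deleted RNAs. The vehicle-treated culture, the only one not exposed to TAM, was the brightest, wild-type cells were the dimmest, and the Sox9-deleted cultures lay between them. The log2 ratios were -0.86 and 1.46. The second Ltf probe, in another part of the transcript, gave -0.85 and 1.46, so the opposite signs were not those of a single probe.

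Hp showed the same order with a wider step. Its brightness was 114.7 in wild-type cells with TAM, 153.8 and 188 in the Sox9-deleted RNAs, and 641.4 in vehicle-treated cells. The log2 ratios were -0.42 and 1.77, and on processed signals they were -2.34 and 2.32. On the genotype array 6.01% of tested genes had a lower ratio than Hp, and on the treatment array 99.7% did.

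Cfb, the serine protease of the alternative complement pathway, had a brightness of 167.3 in wild-type cells with TAM against 278.5 for the Sox9-deleted RNA of that array. It was 327.2 in vehicle-treated cells against 285.8. The log2 ratios were -0.74 and 0.19, so the difference was nearly all on the genotype array, where wild-type cells stood apart from the other 3 RNAs.

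C3, the central complement protein, was higher with Sox9 on both arrays. Its brightness was 3823.6 in wild-type cells with TAM and 4757.9 in vehicle-treated cells, against 3199.9 and 2802 in Sox9-deleted cells, with no overlap. The log2 ratios were 0.26 and 0.76, a mean of 0.51 ± 0.36 (n = 2). This probe is printed 10 times on the array and the SD between its spots was 0.0353 and 0.026, which covers spot error and not the spread between cultures. The second C3 probe gave 0.27 and 0.81.

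Pigr was at the edge of detection. Its brightness was 105.2 in wild-type cells with TAM, 127.1 in vehicle-treated cells, and 102.5 and 97.7 in the Sox9-deleted RNAs, neither of which was well above background. Its log2 ratios were 0.04 and 0.38, and in their mean it was at least 1.16-fold higher in the Sox9-expressing RNAs. Of the genes for its cargo, Igj was not well above background in any RNA.

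The Sox9-deleted RNAs are the only condition with 2 RNAs. Set side by side after quantile normalization of the average brightness between arrays, the second minus the first was -0.51 for Saa3, -0.43 for Ltf, 0.29 for Hp, -0.19 for C3 and -0.15 for Saa2 on the log2 scale. The other 4 members differed by less than 0.1. Over all tested probes this difference had an SD of 0.11. In size, the 2 ratios of Saa3 are larger than its own difference, and those of Saa1 are larger than its -0.02. The -0.42 of Hp on the genotype array is close to its 0.29. A single difference between 2 RNAs does not measure the spread between cultures, so nothing is tested by it.

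The same reading across the Sox9-expressing RNAs, vehicle-treated ER-Sox9flox/flox minus wild type with TAM, gave 2.48 for Hp, 1.89 for Ltf and 0.97 for Cfb on the log2 scale. For Saa3 it was 0.18 and for Lcn2 0.1. Over all tested probes the median was -0.02 and the SD 0.31. These RNAs differ in mouse line, TAM and array, and their shares in these values cannot be told apart.

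Stromal markers had the same pattern of signs as Ltf, Hp and Cfb, which 18.4% of all tested genes had. All 10 were well above background in every RNA, all 10 were lower with Sox9 on the genotype array, and 9 of them were higher on the treatment array, Dcn being the exception. Their summed brightness was 37640.9 in wild-type cells with TAM, 95760.8 in vehicle-treated cells, and 63849.5 and 58095.2 in the Sox9-deleted RNAs, the same order as for Ltf. Col3a1 had log2 ratios of -1.63 and 1.13 and Col1a1 of -1.26 and 1.03. The part of stromal cells in the values of Ltf, Hp and Cfb was not tested. In bulk RNA, fewer cells of a type and less RNA per cell cannot be told apart.

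**Figure D3:**
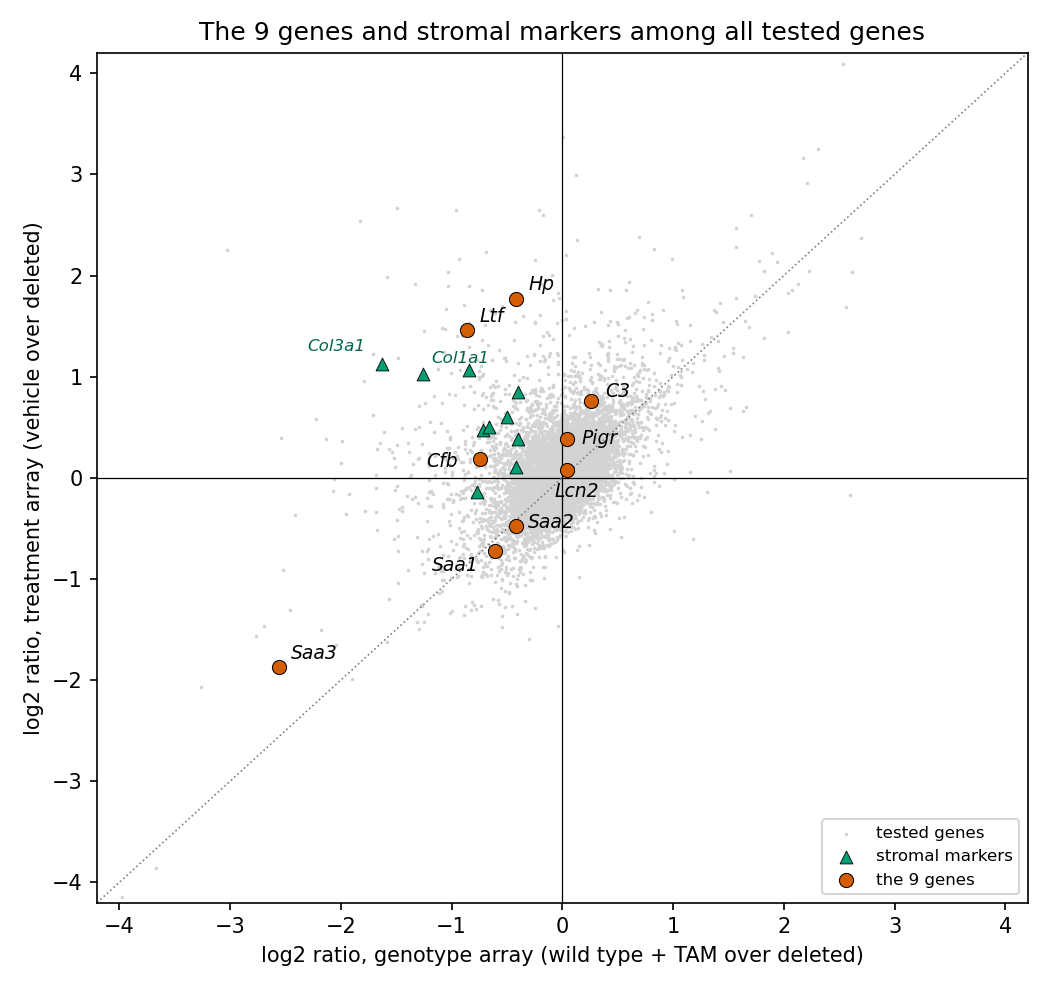
log2 ratio on the genotype array (x axis) against that on the treatment array (y axis) for the 15131 tested genes (grey points), the 10 stromal markers (triangles) and the 9 genes (labeled circles); the dotted line marks equal ratios. Saa3 lies far out at the lower left near the line, whereas Ltf, Hp and Cfb lie in the upper left quadrant with 9 of the stromal markers.

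Hepatocyte, neutrophil and lymphocyte markers were mostly not well above background, whereas some macrophage markers were detected. Of 10 hepatocyte markers 8 were well above background in no RNA, Alb, Apoa1 and Ttr among them. Of 9 neutrophil markers 8 were above in none, among them Mpo, Elane and Ngp, although neutrophil granules are a known source of Ltf and Lcn2. Of 10 lymphocyte markers 9 were above in none. Of 10 macrophage markers 5 were above in none, with Ptprc, Emr1 and Cd163 among these, 2 were above in wild-type cells with TAM and 5 in each of the other RNAs. Their summed brightness was 1216.6 and 1240.1 in the Sox9-expressing RNAs and 1443.9 and 1492.6 in the Sox9-deleted RNAs. Most of the difference between these sums came from Cd68, a lysosomal protein not limited to macrophages. It was at 332.5 and 318.9 in the Sox9-expressing RNAs and 534.8 and 545.4 in the Sox9-deleted RNAs. Of the 5 markers tested, 4 were lower with Sox9 on both arrays, as were the Saa genes and 33.8% of all tested genes. Tyrobp had log2 ratios of -0.2 and -0.13, Laptm5 of -0.07 and -0.12 and Aif1 of -0.09 and -0.03, whereas Csf1r had 0.03 and -0.12. The part of macrophages in the values of the Saa genes was not tested.

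The genes whose pair of log2 ratios was nearest to that of Saa3 were Krt23 (-2.77 and -1.56), Cyp2b13 (-2.69 and -1.47), 2310043J07Rik (-2.18 and -1.51), Slpi (-2.04 and -1.66) and Cyp2b10 (-2.46 and -1.3), at distances of 0.369 to 0.574 over the 2 arrays. Krt23 is a type I keratin, Slpi a secreted inhibitor of leukocyte proteases, and both Cyp2b genes encode cytochromes P450.

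Genes of 8 related lists were read in the same way, outside the 9 members. Of 230 listed genes 225 were on the array and 156 were tested, of which 66 were lower with Sox9 on both arrays, 36 higher on both and 54 of opposite sign. Their median mean log2 ratio was -0.07, against 0 over all tested genes. Of all tested genes, 33.8% were lower on both arrays and 33.8% higher on both. A further 18.4% were lower on the genotype array and higher on the treatment array. The counts of each list below are to be read beside these shares. The counts of the 156 genes turned with the scaling. With median centring in place of loess, 28 were lower on both arrays and 48 higher. Of all tested genes 11.2% were then lower on both, and their median lay 0.42 above 0 on the treatment array. The counts under median centring given for each list below include that shift. The share of all tested genes higher on both arrays under median centring was not counted. The counts of genes higher under it thus have no share to be read beside. limma at an adjusted p under 0.05 called 0.0132% of all tested genes and none of the 156. At an unadjusted p under 0.05 limma called 19.5% of all 15131 tested genes, 1373 lower with Sox9 and 1584 higher. Of the 156 it called 29 lower and 10 higher. The test had 1 residual degree of freedom.

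**Figure D4:**
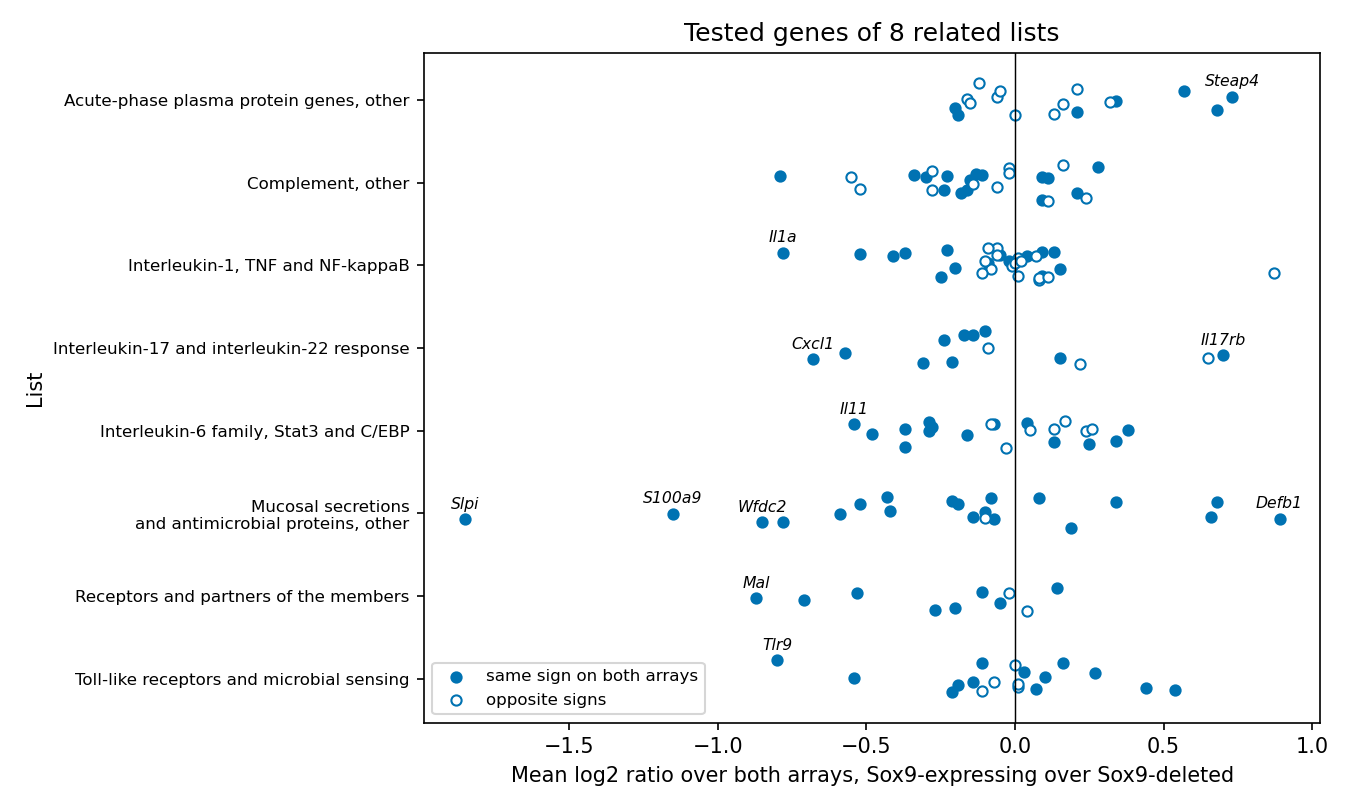
Mean log2 ratio over both arrays (x axis) of each tested gene of 8 related lists (y axis), filled where both arrays had the same sign and open where they did not. Slpi lies lowest, at -1.85, in the list of mucosal secretions.

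Among 21 tested genes of mucosal secretion and antimicrobial defence, 14 were lower with Sox9 on both arrays, 6 higher and 1 of opposite sign (9 lower and 6 higher under median centring). Slpi had a brightness of 568.2 and 501.6 in the Sox9-expressing RNAs and 2338.3 and 1581 in the Sox9-deleted RNAs, with no overlap. Its mean log2 ratio was -1.85 ± 0.27 (n = 2, limma adjusted p = 0.0833), and it was the only one of the 156 genes at least 2-fold apart in one direction on both arrays. Next came S100a9 at -1.15 ± 1.13, from -1.95 and -0.36, and Wfdc2 at -0.85 ± 0.19. S100a8, the calprotectin partner of S100a9, had a mean of -0.78 ± 0.12. The highest were Defb1, a beta-defensin of epithelia, at 0.89 ± 0.65, Reg3g, an antibacterial lectin, at 0.68 ± 0.14, and Agr2 at 0.66 ± 0.76.

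Upstream, Il6 was lower with Sox9 on both arrays, with log2 ratios of -0.35 and -0.39, and its brightness of 161.8 and 179.7 in the Sox9-expressing RNAs lay below 206.2 and 236 in the Sox9-deleted RNAs. Its receptor subunits Il6ra (0.1 and 0.15) and Il6st (-0.12 and 0.6) were not lower on both. Stat3 had 0.14 and 0.54 and its inhibitor Socs3 0.07 and 0.69. The C/EBP factor Cebpb had -0.52 and -0.21, whereas Cebpd had -0.88 and 0.72, the signs of Ltf and Hp. Of 21 tested genes on the interleukin-6 list 9 were lower on both arrays, 5 higher and 7 of opposite sign, but under median centring 4 were lower and 7 higher. The lowest means were those of Il11 at -0.54 ± 0.02, Pim1 at -0.48 ± 0.07 and Il6 at -0.37 ± 0.03, and the highest with one sign were Socs3 at 0.38 ± 0.44, Stat3 at 0.34 ± 0.28 and Jak1 at 0.25 ± 0.13.

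Il1a, an alarmin of epithelial cells, had log2 ratios of -0.68 and -0.87, with 128.8 and 116.3 in the Sox9-expressing and 206.9 and 213.2 in the Sox9-deleted RNAs. Il1b was too dim to be tested. The receptor Il1r1 had -0.33 and 0.16. Of 31 tested genes of the interleukin-1, TNF and NF-kappaB list 10 were lower on both arrays, 5 higher and 16 of opposite sign, but under median centring 2 were lower and 13 higher. Birc3 at -0.52 ± 0.25 and Nfkb2 at -0.41 ± 0.25 followed Il1a, and the highest with one sign were Irak4 at 0.15 ± 0.09, Ikbkg at 0.13 ± 0.15 and Irak1 at 0.09 ± 0.01. Of the NF-kappaB subunits and the inhibitors of the IkappaB family, Rela had -0.35 and -0.38, Nfkb1 0.29 and -0.07, Nfkbia 0.19 and -0.05, and Nfkbiz 0.07 and 0.1. The other tested ones on this list, named after their values were seen, were lower on both arrays. They had -0.15 and -0.36 for Relb, -0.23 and -0.58 for Nfkb2, -0.04 and -0.15 for Nfkbib and -0.17 and -0.28 for Nfkbie. Bcl3, of the same family but on the interleukin-6 list, had opposite signs, -0.05 and 0.32.

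The interleukin-17 and interleukin-22 list had 13 tested genes, 8 lower on both arrays, 2 higher and 3 of opposite sign, against 3 lower and 2 higher under median centring. Cxcl1, a neutrophil chemokine, had the lowest mean at -0.68 ± 0.07, followed by Csf2 at -0.57 ± 0.31 and Csf3 at -0.31 ± 0.27. The highest with one sign were Il17rb at 0.7 ± 0.3 and Traf3ip2 at 0.15 ± 0.05. Il17ra had -0.12 and -0.3, and the ligand genes Il17a, Il17c, Il17f and Il22 were too dim to be tested.

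Microbial sensing gave no common direction, with 6 of 18 tested genes lower on both arrays, 7 higher and 5 of opposite sign (2 lower and 7 higher under median centring). Tlr9 had the lowest mean at -0.8 ± 0.03, with Cd14 at -0.54 ± 0.7 and Tlr3 at -0.21 ± 0.08 next. Nod1 at 0.54 ± 0.47 and Pglyrp1 at 0.44 ± 0.33 were the highest. Dmbt1 followed, with log2 ratios of 0.13 and 0.41 and at least 1.21-fold higher in their mean. Of the receptors and partners of the 9 members, 7 of 10 tested genes were lower on both arrays, 1 higher and 2 of opposite sign (3 lower and 1 higher under median centring). Mal, a raft protein of epithelia, was lowest at -0.87 ± 0.42, then Mmp9, which binds Lcn2 protein, at -0.71 ± 0.21, and Hmox1, which degrades haem, at -0.53 ± 0.01, and the highest was Scarb1 at 0.14 ± 0.04. The complement receptor C3ar1 had -0.15 and 0.11, and the haptoglobin receptor gene Cd163 and Fpr2 were too dim to be tested.

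Of 17 other acute-phase plasma protein genes tested, 8 had the signs of Hp and Ltf. These 8 were lower on the genotype array and higher on the treatment array, as were 18.4% of all tested genes. Of the remaining genes 2 had the reverse signs, 5 were higher on both and 2 lower on both, the signs of Saa3. Under median centring 7 were higher on both and 1 lower. The genes higher on both were led by Steap4 at 0.73 ± 0.55, Cp (ceruloplasmin) at 0.68 ± 0.01 and Mt2 at 0.57 ± 0.01, and the lower ones were Vnn1 at -0.2 ± 0.18 and Itih4 at -0.19 ± 0.15. Chosen after their values were seen, Serpina3n, a protease inhibitor, had -1.48 and 1.19, and Lbp, which binds lipopolysaccharide, -0.5 and 1.15. Serpina3n had a brightness of 188.1 in wild-type cells with TAM, 817.8 in vehicle-treated cells, and 524.7 and 359.1 in the Sox9-deleted RNAs, the order found for Ltf. The stromal values above stand beside these too, and their part was not tested.

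Of 26 other complement genes tested, 10 were lower on both arrays, 5 higher on both, 10 lower on the genotype array and higher on the treatment array, and 1 the reverse. Under median centring 4 were lower on both and 5 higher. With one sign, Serping1, the C1 inhibitor, was lowest at -0.79 ± 1, from -1.49 and -0.09, followed by Cd55 at -0.34 ± 0.12 and C1qa at -0.3 ± 0.08. Cfi at 0.28 ± 0.33, Cfp at 0.21 ± 0.1 and Clu at 0.11 ± 0.15 were the highest. Chosen after its values were seen, C2, the close relative of Cfb in the classical pathway, had -1.39 and 0.34. In C2 as in Cfb, wild-type cells with TAM had the lowest signal of the 4 RNAs.

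**Figure D5:**
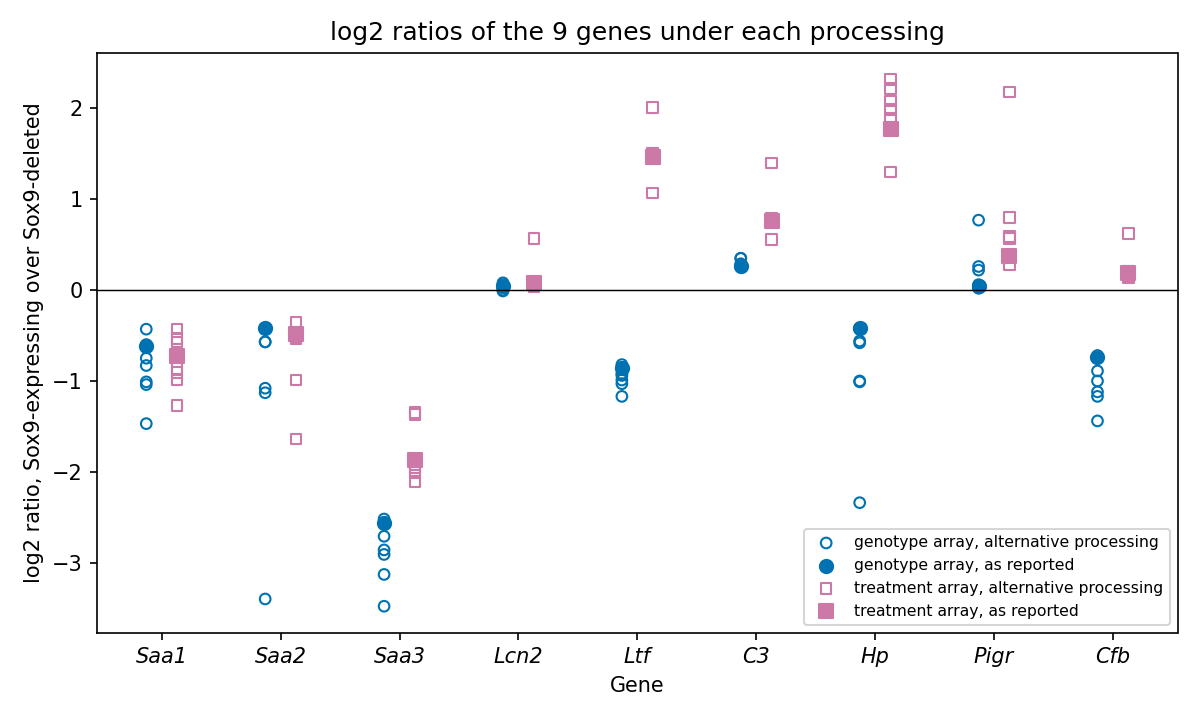
log2 ratio (y axis) of each of the 9 genes (x axis) on the genotype array (circles) and the treatment array (squares), as reported (filled) and under each alternative processing (open). Saa3 lies below -1 on both arrays under every processing, and Ltf and Hp lie on opposite sides of 0 under every one.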

How the data were processed

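The authors' scanner software, Agilent Feature Extraction 10.5.1.1, deposited for each spot the mean intensity and the median local background intensity of Cy5 and Cy3, uncorrected. Per the file headers it also gave background-subtracted, dye-normalized processed intensities and their log10 ratio. The authors deposited a table of values, found to be Cy5 over Cy3 on a log2 scale when set against the log10 ratios (medians of -0.00989 and -0.00344, slopes of 3.12 and 3.14, correlations of 0.983 and 0.987 across bright spots, which are not independent). How it was made is not given in the sources used here, beyond limma in the submitters' processing notes.

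From the mean intensities, background was corrected by normexp (limma 3.58.1, R 4.3.3, offset 50), control spots (1639 of 45018) were left out, and loess was run within each array. Outlier spots (126 and 130) were dropped and a probe's spots averaged. The 22731 of 41174 probes well above background on both arrays in the same dye were tested with limma's lmFit and eBayes, 2-sided, adjusted by Benjamini-Hochberg (prior degrees of freedom 2.8). Between 53.9% and 56.2% of probes were well above background in each RNA, and 0 spots were saturated. Brightness per RNA came from Aquantile normalization between arrays. Precision is limited by the number of arrays. The labels do not say whether cultures came from separate animals.

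The 9 members and all lists were chosen with earlier results of these data known. The genes named beside the members were those at least 2-fold apart in one direction on both arrays, limma's calls, the 3 highest and 3 lowest means of each list among genes of one sign, a preset group of cytokines, receptors and factors, and the 5 genes nearest to Saa3. Listed genes were matched by array name, accession or synonym. Alternatives were median centring, an offset of 10, no background subtraction, the processed intensities, the authors' table, other filters, the mean over probes, scaled arrays and each array alone. The code was tested on simulated data. Sequences were handled with Python 3.11.15 and Biopython 1.88, and figures drawn with matplotlib 3.10.9.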

Additional observations from a re-analysis of the deposited data

Results flagged for a closer look

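Ltf, Hp and Cfb had log2 ratios of opposite sign on the 2 arrays, which differ in the Sox9-expressing RNA, wild-type cells with TAM on one and vehicle-treated ER-Sox9flox/flox cells on the other. The treatment array minus the genotype array was 2.32 for Ltf, 2.19 for Hp and 0.93 for Cfb on the log2 scale. With 1 array of each kind the difference was not tested. The same difference was 0.69 for Saa3, -0.11 for Saa1 and 0.04 for Lcn2.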

How the results depend on the processing

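Saa1, Saa2 and Saa3 stayed negative and Lcn2, C3 and Pigr positive in their mean log2 ratio under every alternative that gave a value, with Saa3 between -2.62 and -1.93. Saa2 and Pigr had no value where both channels had to be well above background. The mean over arrays of opposite sign turned for Ltf with scaled arrays (-0.05) and for Hp on processed intensities (-0.01), and single arrays gave -0.86 to 1.46 for Ltf, -0.42 to 1.77 for Hp and -0.74 to 0.19 for Cfb. On single arrays, 3 to 6 members were lower with Sox9. At least 2-fold lower on both arrays was 1 member, also with an offset of 10, and 3 on processed intensities, Saa2 among them through a wild-type signal not well above background. The share of all tested genes rose as well, from 0.159% as reported to 0.231% with an offset of 10 and 1.77% on processed intensities. Of the list genes, 1 passed the 2-fold rule in one direction on both arrays, 4 without background subtraction, 4 in the authors' table, 11 on processed intensities, and 8 to 9 on single arrays. Of all tested genes 0.291% were at least 2-fold lower on both without background subtraction and 0.278% in the authors' table. The shares higher under these alternatives and those on single arrays were not counted, so nothing is read from the counts. limma called 2 probes over the whole array, 522 with median centring, 68 in the authors' table, 21 without a filter on dim probes, and 0 with an offset of 10, without background subtraction, on processed intensities or with scaled arrays; the cause was not tested. Of the list genes (alternatives chosen after seeing the data), 66 were lower on both arrays and 36 higher, 28 lower with median centring, 57 higher without a filter on dim probes, where more genes enter, and 77 to 109 lower and 47 to 79 higher on single arrays. Median centring left the median of all genes 0.42 above 0 on the treatment array, and the values under it include that shift. No paired analysis was possible because each array already sets its 2 RNAs against each other and the labels number no replicates across groups. Dim probes limit Saa1, Saa2, Hp, Pigr and, on the genotype array, Cfb, whose log2 ratios depend on the constant added. For Cfb the ratio of that array was -0.74, and -0.89 with an offset of 10.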
